A study of Mus musculus with 12 samples.

Results

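DNA methylation genes were followed through endoderm differentiation of F9 cells, with and without knock-down of Kdm3a, whose product removes methyl groups from lysine 9 of histone H3. The set was chosen by name, with earlier results of these data known. It comprised 7 genes: the methyltransferases Dnmt1, Dnmt3a and Dnmt3b, the cofactors Dnmt3l and Uhrf1, and the dioxygenases Tet1 and Tet2. Of these 7 genes, 6 had a probe on the array (11 of 45281 probes) and 5 could be tested, out of 11621 genes tested and 19057 genes with a probe. F9 is a mouse embryonal carcinoma line that turns into endoderm under retinoic acid. The 12 Illumina bead arrays formed 6 groups of 2. The control cells (CTL, labelled wild type for Kdm3a) and the knock-down cells (carrying the construct pRS-kdm3a) were each sampled at 3 stages: untreated (0 h), treated for 3 days with retinoic acid (72 h), or treated for 3 days with retinoic acid and for 3 more days with both retinoic acid and cAMP (6 d). The labels call the 2 samples of a group biological replicates and do not say whether the knock-down cells were 1 clone or what construct, if any, the control cells carried. Nothing in the labels says that the replicates came from separate cultures, so p-values measure the spread between these samples, which may be technical.

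DNA methylation is set on unmethylated CG sites by Dnmt3a and Dnmt3b, whose activity in germ cells and early embryos is stimulated by the catalytically inactive relative Dnmt3l. After replication Uhrf1 binds the hemimethylated sites and recruits Dnmt1, which copies the mark to the new strand. Tet1 and Tet2 oxidise 5-methylcytosine and so start its removal. Dnmt3b, Dnmt3l and Tet1 are known for high expression in pluripotent cells and for their decline during differentiation.

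The sequences upstream of the start sites are shown for Dnmt3l, Dnmt3b and Tet1, the members that fell most by 6 d in the knock-down cells, because they differ in the very dinucleotide that these enzymes modify. They are the 250 bases before the start in RefSeq (GRCm38.p6), read 5′ to 3′ on the strand of the gene, with each CG in capitals: chr10:78042037-78042286 on the plus strand for Dnmt3l, chr2:153649199-153649448 on the plus strand for Dnmt3b and chr10:62887325-62887574 on the minus strand for Tet1.
Dnmt3l: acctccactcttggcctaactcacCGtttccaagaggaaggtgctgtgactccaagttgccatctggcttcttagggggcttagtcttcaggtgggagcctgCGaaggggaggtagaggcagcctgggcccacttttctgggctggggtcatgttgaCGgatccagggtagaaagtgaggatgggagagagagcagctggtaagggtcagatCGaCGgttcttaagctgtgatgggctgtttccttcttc
Dnmt3b: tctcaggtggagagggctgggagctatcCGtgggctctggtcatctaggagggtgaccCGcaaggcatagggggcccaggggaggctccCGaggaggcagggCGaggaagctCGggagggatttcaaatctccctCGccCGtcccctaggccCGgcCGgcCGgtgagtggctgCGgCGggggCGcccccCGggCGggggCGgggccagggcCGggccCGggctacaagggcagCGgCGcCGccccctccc
Tet1: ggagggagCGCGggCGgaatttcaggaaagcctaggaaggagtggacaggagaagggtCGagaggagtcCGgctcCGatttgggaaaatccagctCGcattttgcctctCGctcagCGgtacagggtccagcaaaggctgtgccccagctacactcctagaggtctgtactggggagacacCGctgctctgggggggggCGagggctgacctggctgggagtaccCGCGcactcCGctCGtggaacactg

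The Dnmt3l window held 5 CG dinucleotides, the Dnmt3b window 21 and the Tet1 window 15, against a median of 6 over the 32851 windows of the same length. Dnmt3l has other listed starts, with 4 and 3 CG dinucleotides. The Dnmt3l window shown is the one at the start of the gene in RefSeq. These arrays do not show which start F9 cells use, for this gene or the others. The RefSeq table lists a pair of starts for Uhrf1, with 10 and 30. On both strands, the letters GGGCGG, the core of the GC box, occurred 3 times in the Dnmt3b window, once in the Tet1 window and not in the Dnmt3l window shown, and 32.7% of all windows hold them. Each GGGCGG includes 1 of the capital CGs. The nuclear receptor half-site AGGTCA was found once in the Tet1 window and in neither of the other windows shown, against 14% of all windows. The octamer ATGCAAAT was in none of the windows shown and in 1.6% of all windows. No AGGTCA overlapped a GGGCGG. These arrays measured RNA and not methylation, so nothing here reports the methylation of these sequences.

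The labelled cell state and knock-down were checked first. The 8 markers of undifferentiated cells were all detected on both arrays of each 0 h group, and 5 of them (Fgf4, Sox2, Tdgf1, Utf1 and Zfp42) fell between 0 h and 6 d in control cells (limma, adjusted p under 0.05). All 13 endoderm markers rose over the same interval. Of 8 fibroblast markers with a probe, 0 to 2 were detected on both arrays of a group, and of 5 macrophage and blood markers 0 or 1. Lum, Postn and Adgre1 were undetected on both arrays in every group. Others on these lists were called between 0 h and 6 d. Dcn was at least 1.77-fold higher at 6 d in control cells and at least 2.18-fold in knock-down cells. Col3a1 was called higher in control cells and Cd14 in knock-down cells. Thy1 was called lower in both kinds of cells and Col1a2 in knock-down cells. The brightest Kdm3a probe read 9.12 to 9.98 in control cells and 7.53 to 8.93 in knock-down cells, without overlap at any stage. Averaged over the stages, the log2 difference was -1.45 (SE 0.11, adjusted p = 5.78e-04), and each stage taken alone had a lower fitted level in knock-down cells. By stage the adjusted p was 0.123 at 0 h, 0.0262 at 72 h and 0.0675 at 6 d in the limma fit over genes, and 0.180, 0.0636 and 0.0275 for the same probe in the fit over all probes, so the stage that passed depended on the fit. Raw median intensity ran from 124.8 to 219.8, 33.6% to 40.8% of probes were detected, and the highest percentages were on the 72 h arrays. Over 19450 probes that no array detected, the 72 h arrays resembled each other (correlations of 0.124 to 0.220). So did the knock-down 0 h, control 6 d and knock-down 6 d arrays of replicate 2 (0.158 to 0.195), while all other pairs were at or under 0.0913. Stage and such an array set cannot be told apart at 72 h. The knock-down 6 d replicates stood further apart than any other pair (r = 0.949), replicate 1 having a summed level of undifferentiated markers of 7795 intensity units and replicate 2 of 19668.

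Dnmt3l fell further than the other members. Its brighter probe read 12.69 and 12.92 on the log2 intensity scale in untreated control cells, 10.44 and 10.18 after 72 h, and 9.26 and 9.08 after 6 d. Untreated knock-down cells gave 13.20 and 13.30, with 11.33 and 10.60 after 72 h and 9.34 and 9.39 after 6 d. In both kinds of cells the arrays of the 3 stages did not overlap, and each later stage was lower; 2.97% of all genes showed this pattern in both.

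**Figure D1:**
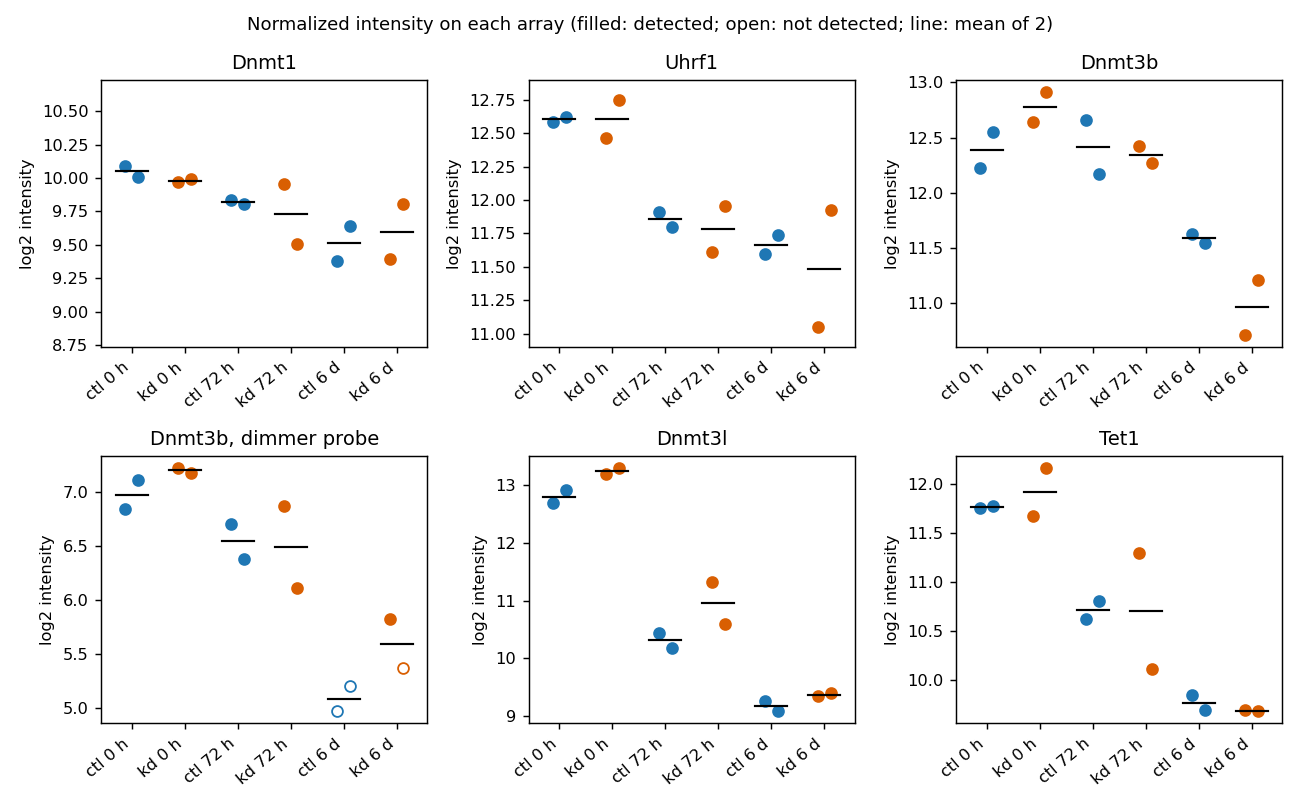
Log2 normalized intensity (vertical axis, a separate range in each panel) of the 5 tested genes and of the dimmer Dnmt3b probe on each of the 12 arrays, by group (ctl, control; kd, knock-down). Filled points were detected, open points were not, and lines are means of 2 arrays. Dnmt3l goes from 12.69 to 13.30 at 0 h down to 9.08 to 9.39 at 6 d, whereas Dnmt1 stays between 9.38 and 10.09.

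The log2 change of Dnmt3l in control cells was -2.50 between 0 h and 72 h (SE 0.25, limma adjusted p = 9.93e-05) and -1.14 between 72 h and 6 d (SE 0.25, adjusted p = 0.045). Of the 0 h signal, 8.03% was left at 6 d (log2 change -3.64, adjusted p = 4.19e-06). In knock-down cells the corresponding changes were -2.29, -1.60 and -3.88 (adjusted p = 1.98e-04, 0.00994 and 2.79e-06), leaving 6.77% at 6 d. Of the 11621 genes tested, 6 fell more than Dnmt3l by 6 d in control cells and 3 in knock-down cells. Dnmt3l was 1 of 12 genes (0.103%) called lower in each of the 6 stage comparisons, which share arrays. The second Dnmt3l probe, on its own normalized scale, changed by -3.71 and -3.98 between 0 h and 6 d in control and knock-down cells. The step from 72 h to 6 d in control cells lay near the threshold: in the fit over all probes the brighter probe had an adjusted p of 0.0563 and the second of 0.0404 (0.725% of probes were called lower). It passed in 4 of the 12 fits that left out 1 array, those without a 72 h or 6 d knock-down array, and without control 72 h replicate 1 it was -1.01 (adjusted p = 0.323). The step in knock-down cells lost its call without knock-down 72 h replicate 1 (-1.23, adjusted p = 0.0996).

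Dnmt3b, the de novo methyltransferase of early embryonic cells, was not called at 72 h in either kind of cells and was lower at 6 d in both. Its brighter probe read 12.22 and 12.55 in untreated control cells, 12.66 and 12.17 after 72 h, and 11.63 and 11.55 after 6 d. Knock-down cells gave 12.64 and 12.91, then 12.42 and 12.27, then 10.71 and 11.21. The 6 d arrays lay below all the earlier ones in both kinds of cells, and the control arrays at 0 h and 72 h overlapped. The share of all genes with this pattern was not counted, so it only describes these arrays.

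From 0 h to 72 h the change of Dnmt3b was 0.03 in control cells (95% interval -0.53 to 0.59) and -0.43 in knock-down cells (-0.99 to 0.13), neither called. From 72 h to 6 d it was -0.82 in control cells (limma adjusted p = 0.117) and -1.38 in knock-down cells (SE 0.25, adjusted p = 0.0172). Between 0 h and 6 d the changes were -0.79 in control cells (SE 0.25, adjusted p = 0.0449) and -1.81 in knock-down cells (adjusted p = 5.03e-04). The control call passed in 2 of the 12 fits that left out 1 array, those without a knock-down 6 d array. It had an adjusted p of 0.0578 in the fit over all probes, and without control 0 h replicate 2 it was -0.63 (adjusted p = 0.230). The knock-down fall from 72 h to 6 d was not called without either knock-down 72 h array (adjusted p = 0.130 without replicate 1 and 0.0944 without replicate 2).

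A second, much dimmer Dnmt3b probe read 6.84 and 7.11 in untreated control cells, 6.70 and 6.38 after 72 h, and 4.97 and 5.20 after 6 d, where neither array detected it. It was at least 2.65-fold lower at 6 d than at 0 h (adjusted p = 0.00106 in the fit over all probes, where 8.59% of probes were called lower). Here the bound sets the 0 h mean against, on each 6 d array, the higher of the dimmest detected probe and the probe's own signal. In knock-down cells it read 7.22 and 7.17 at 0 h and 5.82 and 5.37 at 6 d (log2 change -1.60, adjusted p = 0.00287, with 8.43% of probes called lower). The lower of these 6 d arrays did not detect it. Both probes were therefore lower at 6 d than at 0 h in both kinds of cells. From 72 h to 6 d the dimmer probe was at least 1.97-fold lower in control cells (adjusted p = 0.0326 in the fit over all probes). At that step 0.725% of probes were called lower. In knock-down cells its change was -0.90 (adjusted p = 0.123, not called), so the 2 probes disagree on which cells passed. With the mean of probes the step was called in both (limma adjusted p = 0.0305 and 0.0236).

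Dnmt3a, the other de novo enzyme, had 3 probes and none was detected on any array. Their lowest detection p-value was 0.0513 and their raw signals ran from 106.6 to 228.4 intensity units, so Dnmt3a was not well above background and has no test. Tet2 has no probe in the annotation used here.

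Tet1 fell by 6 d in both kinds of cells. Control cells read 11.76 and 11.78 untreated, 10.62 and 10.81 after 72 h, and 9.85 and 9.70 after 6 d. Knock-down cells read 11.67 and 12.17, then 11.30 and 10.11, then 9.70 and 9.68. The stages did not overlap in either, each later one being lower, as in 2.97% of all genes, although the knock-down 72 h arrays lay far apart.

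The change of Tet1 between 0 h and 6 d was -2.00 in control cells (SE 0.33, limma adjusted p = 0.00151), leaving 25.1% of the signal, and -2.23 in knock-down cells (adjusted p = 7.33e-04), leaving 21.3%. From 0 h to 72 h it was -1.05 in control cells (adjusted p = 0.0555, not called) and -1.21 in knock-down cells (adjusted p = 0.0296, called). The difference between the stage changes of knock-down and control cells was -0.16 (SE 0.47, adjusted p = 1.00), so a difference between the 2 kinds of cells was not shown. The knock-down value was -0.62 (adjusted p = 0.219) when knock-down 72 h replicate 2 was omitted. It was -0.97 (adjusted p = 0.186) when knock-down 0 h replicate 2 was omitted. Leaving out either control 72 h array gave an adjusted p of 0.0506. The change from 72 h to 6 d was not called in control cells (-0.94, adjusted p = 0.156) or in knock-down cells (-1.02, adjusted p = 0.116). Under median centring both were called (-1.43 and -1.48, adjusted p = 0.00608 and 0.00502). That scaling moved the median of all genes by -0.45 and -0.42 at this step. The control change by 72 h was called with an offset of 50 (adjusted p = 0.0347) and with a stricter filter (adjusted p = 0.0464). With the 3 resembling arrays of replicate 2 as a block it was called too (limma adjusted p = 0.0415). It was not called with the mean of probes, the replicate block or median centring.

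Uhrf1, the reader that recruits the maintenance enzyme, was lower at 6 d by about 1 log2 unit. Control cells read 12.59 and 12.62 untreated, 11.91 and 11.80 after 72 h, and 11.59 and 11.74 after 6 d. Knock-down cells read 12.46 and 12.75, then 11.61 and 11.96, then 11.05 and 11.92. The 0 h arrays were the highest in both, and in knock-down cells the 72 h and 6 d arrays overlapped. How many of all genes had their highest arrays at 0 h was not counted.

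Between 0 h and 6 d Uhrf1 changed by -0.94 in control cells (SE 0.28, limma adjusted p = 0.0338) and by -1.12 in knock-down cells (adjusted p = 0.0152). At 72 h the change of -0.75 in control cells and -0.82 in knock-down cells was not called (adjusted p = 0.101 and 0.0690). The control change was called with the 3 resembling arrays of replicate 2 as a block (adjusted p = 0.0329). The knock-down change was called with an offset of 50 (adjusted p = 0.0442) and with the replicate block (adjusted p = 0.0404). Neither was called with a stricter filter, the mean of probes or median centring. With arrays centred on a common median the change was -0.16 by 72 h and -0.58 after it in control cells, and -0.23 and -0.66 in knock-down cells. That scaling moved the median of all genes by 0.58 and 0.61 by 72 h and by -0.45 and -0.42 after it. Relative to that median the Uhrf1 changes were -0.74 and -0.13 in control cells and -0.85 and -0.24 in knock-down cells. The fit over genes gave -0.75 and -0.19, and -0.82 and -0.30, so the division relative to other genes was similar. Omitting knock-down 6 d replicate 1 ended the knock-down call (-0.68, adjusted p = 0.0830). Omitting replicate 2 of the untreated knock-down cells ended it too (-0.98, adjusted p = 0.0965). The control call was lost when either array of control 0 h, 72 h or 6 d was left out, with changes of -0.86 to -1.01. A second Uhrf1 probe was detected on no array.

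Dnmt1, the maintenance methyltransferase, was not called in any of the 13 comparisons of the limma fit over genes. With the 3 resembling arrays of replicate 2 as a block, its control change between 0 h and 6 d was called (-0.65, adjusted p = 0.0456). That change was not called with the replicate block, an offset of 50, a stricter filter, the mean of probes or median centring. Control cells read 10.09 and 10.01 untreated, 9.84 and 9.81 after 72 h, and 9.38 and 9.64 after 6 d, each stage lower without overlap, as 7.50% of all genes were in control cells. Knock-down cells read 9.97 and 9.99, then 9.95 and 9.51, then 9.39 and 9.80. Its change between 0 h and 6 d was -0.54 in control cells (95% interval -1.04 to -0.03, limma adjusted p = 0.123) and -0.38 in knock-down cells (-0.89 to 0.12, adjusted p = 0.273). These intervals allow a fall of up to 1.04 log2 units and do not show that Dnmt1 stayed level.

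**Figure D2:**
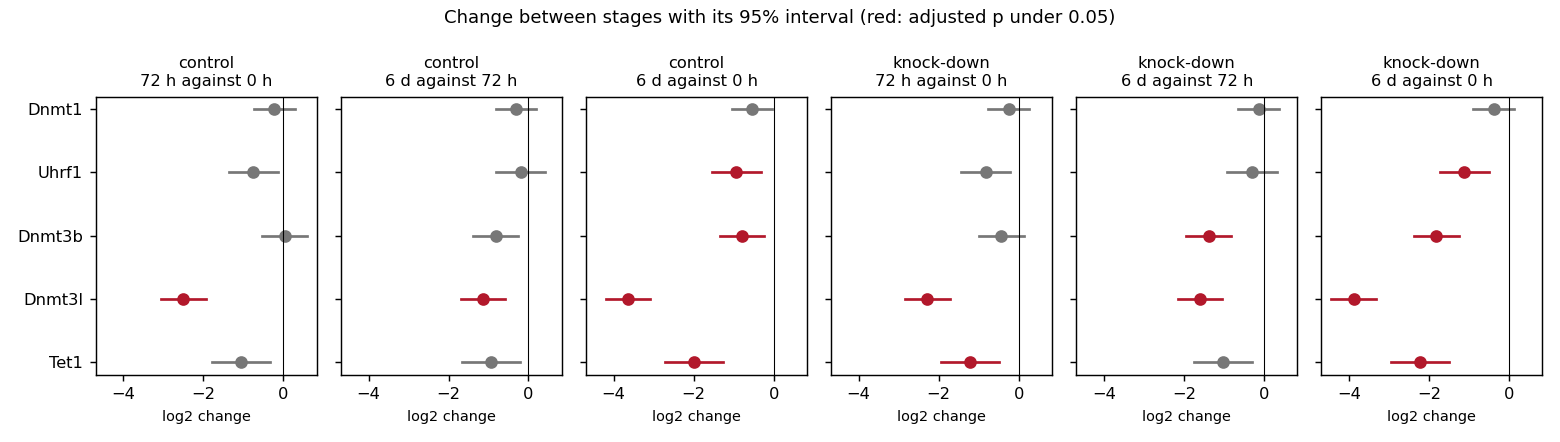
Log2 change between stages (horizontal axis) of the 5 tested genes in control and knock-down cells, with points at the fitted change and bars for its 95% interval. Red marks adjusted p under 0.05. Dnmt3l is red in all 6 panels and Dnmt1 in none.

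Set against all genes, the members were called lower more often than the background between 0 h and 6 d. The members were chosen with earlier results of these data known, so these counts describe the set and do not test it. In control cells 4 of the 5 were called lower, against 10.0% of all genes, and in knock-down cells 4 of 5 against 10.2%. The control count was 2 of 5 under median centring, without any one control array and without all the 72 h arrays. The knock-down count was 3 of 5 under median centring, without knock-down 0 h replicate 2 and without knock-down 6 d replicate 1. Fits to the compared groups alone called 3 of 5 in each kind of cells. Their median change was -0.94 in control cells and -1.81 in knock-down cells, against -0.03 for all tested genes in each. From 0 h to 72 h, 1 of 5 was called lower in control cells (6.69% of all genes) and 2 of 5 in knock-down cells (7.61%). From 72 h to 6 d, 1 of 5 was called lower in control cells (0.990%) and 2 of 5 in knock-down cells (1.53%). None of the 5 was called higher in any stage comparison. In these whole-culture samples, fewer cells of a type and less RNA per cell cannot be told apart. The summed level of the 8 undifferentiated markers moved the same way, from 31314 to 32338 intensity units at 0 h to 15166 to 19515 at 6 d in control cells, and from 24099 to 24812 to between 7795 and 19668 in knock-down cells. This level is a sum of linear intensities, so the brightest markers weigh most. Of the 8 markers, Pou5f1, Nanog and Esrrb were not called lower in either kind of cells. The part of the summed level in the falls was not tested.

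**Figure D3:**
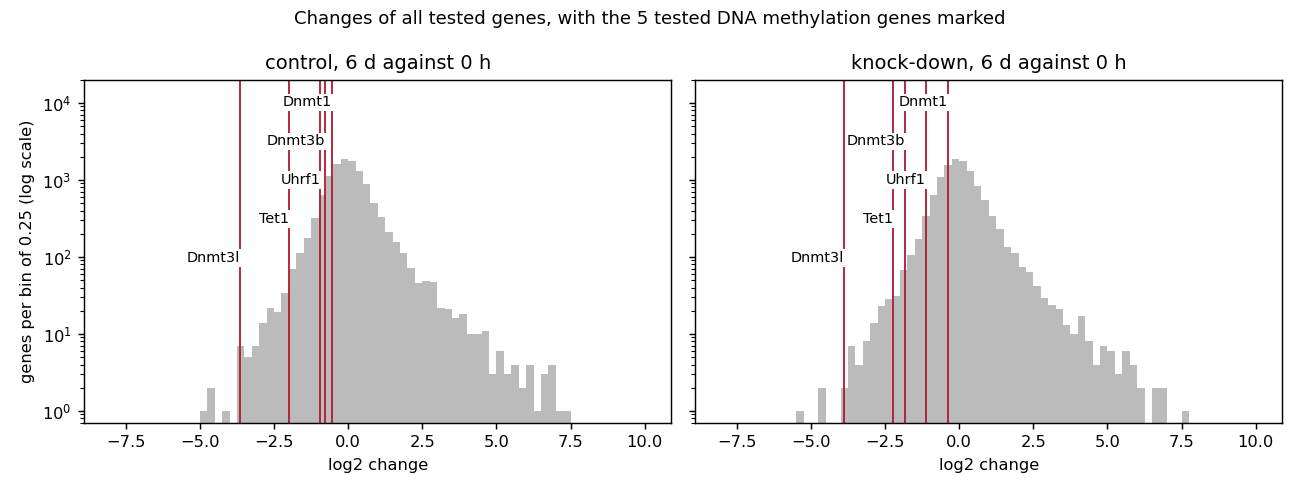
Number of genes (vertical axis, log scale) per bin of 0.25 of the log2 change between 0 h and 6 d (horizontal axis) for all 11621 tested genes, in control and knock-down cells. Red lines mark the 5 tested members, and Dnmt3l lies at the lower edge, at -3.64 and -3.88.

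Replication genes were set beside Uhrf1 and Dnmt1, whose products act at replication forks. Of 15 tested replication and cell cycle genes, 3 fell between 0 h and 6 d in control cells (Mcm7, a subunit of the replicative helicase, with a log2 change of -1.08, Ccne1 with -0.76 and Top2a with -0.63), a share to be read against the 10.0% of all genes called lower. In knock-down cells 6 of 15 fell, adding Mcm4, Mcm5 and Mcm6, where 10.2% of all genes did. Their summed level fell from between 31879 and 33366 intensity units at 0 h to between 19836 and 23867 at 6 d in control cells. At 6 d in knock-down cells it was 14973 in replicate 1, the array with the lower Uhrf1 and Dnmt1 values, and 24279 in replicate 2. Its part in the Uhrf1 result was not tested. The control count was 1 without any one of the control or of the knock-down 0 h or 72 h arrays and 8 without either knock-down 6 d array; the knock-down count was 2 to 4 without any one of the 0 h or 72 h arrays, 3 without knock-down 6 d replicate 1 and 12 without replicate 2.

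The wider machinery did not move one way. Of 53 listed genes, 46 had a probe and 39 were tested. Between 0 h and 6 d, 3 were called higher and 6 lower in control cells, and 3 higher and 6 lower in knock-down cells, where 12.2% and 12.1% of all genes were called higher and 10.0% and 10.2% lower. Their median change was -0.27 in control cells and -0.23 in knock-down cells. From 0 h to 72 h the counts were 3 higher and 3 lower in control cells and 2 higher and 3 lower in knock-down cells (8.11% and 8.79% of all genes higher). When the arrays were scaled to a common median instead, those became 15 higher and 0 lower, and 17 higher and 0 lower, because that scaling raised the median of all genes at 72 h by 0.58 and 0.61. From 72 h to 6 d none of the 39 was called by limma in either kind of cells, against 2.53% and 3.83% of all genes.

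Among genes tied to demethylation, Gadd45g, a stress-response gene linked to DNA repair and demethylation, rose most. In control cells the untreated arrays gave 7.00 and 6.69, both 72 h arrays 9.63, and the 6 d arrays 10.57 and 10.38. Its change between 0 h and 6 d was 3.63 in control cells (SE 0.25, limma adjusted p = 3.77e-06) and 2.46 in knock-down cells (adjusted p = 5.33e-05), whose 0 h arrays read 7.86 and 8.03. Idh1, which makes the 2-oxoglutarate that Tet enzymes consume, rose by 0.99 and 1.05 over the same interval in the 2 kinds of cells (adjusted p = 0.0299 and 0.0234). The cytidine deaminase gene Apobec1 fell, with changes of -1.05 and -0.72 (adjusted p = 0.00400 and 0.0286). Its relative Apobec3 was called in control cells (-1.62) and the mitochondrial enzyme gene Idh3a in knock-down cells (-0.92). These sizes depended on the processing. From the authors' processed intensities the Apobec3 change was -0.68 and the Idh3a change -0.58. Under median centring the knock-down Apobec1 change was -0.46.

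Among the partners of maintenance, Cdca7, which activates the remodeller Hells, read 12.03 and 12.17 in control cells at 0 h and 10.10 and 10.42 at 6 d. Its change was -1.84 in control cells (SE 0.28, limma adjusted p = 7.73e-04) and -1.80 in knock-down cells (adjusted p = 8.66e-04). The DNA ligase gene Lig1 was called lower in knock-down cells (-0.82, adjusted p = 0.0470). Uhrf2, the paralogue of Uhrf1, went the other way from it: it read 10.36 and 10.21 at 0 h and 10.92 and 11.09 at 6 d in control cells, a rise of 0.72 (adjusted p = 0.0214), and rose by 0.76 in knock-down cells (adjusted p = 0.0162). Of the other readers of methylated DNA, Mbd2 was called lower in control cells (-1.49, adjusted p = 0.0272), with a change of -0.57 from the authors' processed intensities. Trim28, the corepressor that protects imprinted methylation, fell, with changes of -0.88 and -0.85 (adjusted p = 0.0132 and 0.0158). So did Shmt1, an enzyme of folate metabolism, with changes of -1.17 and -1.83 (adjusted p = 0.0315 and 0.00322).

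Germline genes known to be silenced by promoter methylation in somatic cells were dim on these arrays. Of 17 listed genes, 16 had a probe and 8 passed the detection filter, and 1 to 4 of the 16 were detected on both arrays of a group. The summed level of the 8 was 575 to 603 intensity units at 0 h and 845 to 846 at 6 d in control cells, and 576 to 622 and 810 to 981 in knock-down cells. A gene could pass the filter through 1 group alone, so the members tested include those that passed only where they were high. Taf7l, a germ cell relative of a general transcription factor, was at least 3.15-fold higher at 6 d than at 0 h in control cells and at least 3.58-fold higher in knock-down cells (limma adjusted p = 5.05e-04 and 2.17e-04), its 0 h arrays all being undetected. Tex101 and Tdrd1 were called lower in control cells and Ddx4 higher in knock-down cells, all on dim probes of at most 6.07 log2 units. From the authors' processed intensities the changes of these 4 genes were smaller, for example 0.84 in place of 2.14 for Taf7l in control cells. Counts were thus 1 higher and 2 lower of 8 in control cells (12.2% and 10.0% of all genes), and 2 higher and 0 lower in knock-down cells (12.1% and 10.2%).

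None of the 5 members differed between knock-down and control cells by limma at an adjusted p under 0.05, at any stage or averaged over stages. The background of such calls was itself small, at 0.0516% of genes at 0 h, 0.00861% at 72 h, 0% at 6 d and 0.413% averaged. At an unadjusted p under 0.05 the members counted 0 of 5 at 0 h (8.15% of all genes), 1 of 5 at 72 h (3.45%), 1 of 5 at 6 d (7.85%) and 1 of 5 averaged (12%). The averaged differences had 95% intervals of -0.32 to 0.27 for Dnmt1, -0.44 to 0.27 for Uhrf1, -0.42 to 0.22 for Dnmt3b and -0.40 to 0.44 for Tet1. For these genes they leave room for averaged differences of up to 0.44 log2 units. Intervals at single stages were wider, for example -1.185 to -0.068 for Dnmt3b at 6 d and -0.58 to 0.88 for Tet1 at 0 h. Larger differences at a stage are therefore not excluded.

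Of the genes on the fixed lists, Gata6, a transcription factor gene of primitive endoderm, was the 1 called between the 2 kinds of cells, at 0 h. It read 5.17 and 5.32 in untreated control cells, where neither array detected it, and 7.30 and 6.79 in untreated knock-down cells. It was at least 2.65-fold higher in the knock-down cells (limma adjusted p = 0.0434), and its level at 72 h and 6 d was 11.82 to 12.45 in all 8 arrays. The call lay near the threshold and passed in 2 of the 12 fits that left out 1 array, those without a knock-down 6 d array (adjusted p = 0.0368 to 0.354 over the 12). With the authors' processed intensities the log2 difference was 0.66 (adjusted p = 0.330), and with the mean of its probes 0.91 (adjusted p = 0.176). The summed level of the 13 endoderm markers at 0 h was 8142 to 10524 intensity units in control cells and 10537 to 14515 in knock-down cells. The summed level of the 8 undifferentiated markers at 0 h was 24099 to 24812 units in knock-down cells and 31314 to 32338 in control cells. At 72 h it was 12868 to 15287 and 18415 to 19873, and at 6 d the arrays overlapped. None of these 8 markers was called between the 2 kinds of cells. The summed level of the 4 tested visceral endoderm markers overlapped at 0 h. It was lower in knock-down cells at 72 h (791 to 873 against 1358 to 1840 units) and at 6 d (477 to 982 against 1381 to 2414). None of the 4 was called between the 2 kinds of cells. The trophoblast and neuroectoderm lists had summed levels of at most 1002 and 284 units, and none of their tested genes was called between them. The part of any of these summed levels in the differences between knock-down and control cells was not tested.

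**Figure D4:**
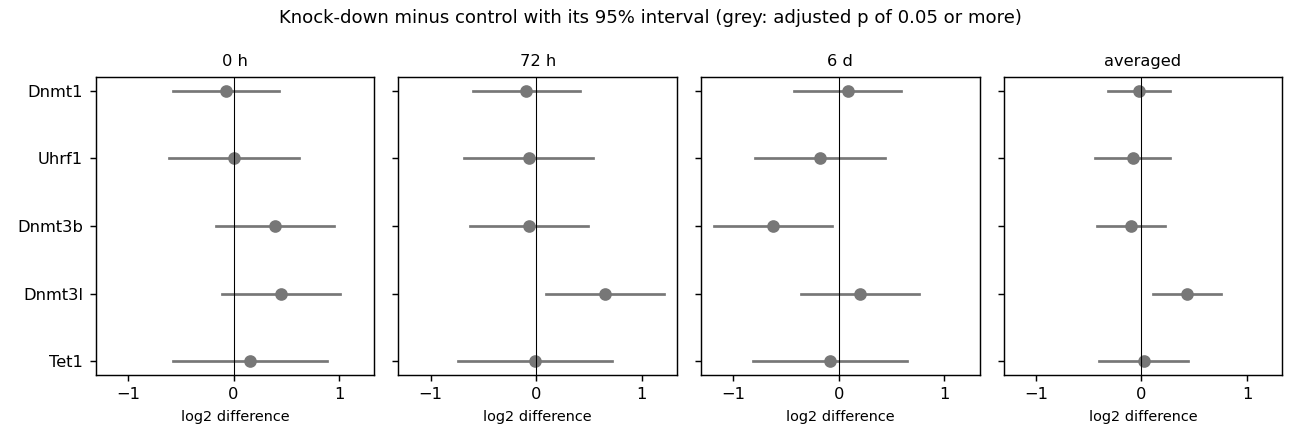
Log2 difference between knock-down and control cells (horizontal axis) of the 5 tested genes at 0 h, 72 h and 6 d and averaged, with points at the fitted difference and bars for its 95% interval. All are grey, since none passed the adjusted threshold. Dnmt3l lies at 0.45, 0.66 and 0.20 and Dnmt3b at 0.39, -0.07 and -0.63.

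Dnmt3l was the member with the largest averaged difference. The brighter probe was higher in knock-down than in control cells by 0.45 at 0 h, 0.66 at 72 h and 0.20 at 6 d on the log2 scale, and the arrays did not overlap at any stage. Of all genes, 2.22% were likewise higher without overlap at each of the 3 stages. The averaged difference was 0.43 (SE 0.15, 95% interval 0.11 to 0.76), with a limma unadjusted p of 0.0130 and an adjusted p of 0.244, so it did not pass. The second probe gave 0.49 averaged, and its arrays overlapped at 6 d (9.03 and 8.74 in control against 9.27 and 8.98 in knock-down cells).

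Dnmt3b showed knock-down differences of opposite sign at the first and the last stage. The brighter probe was higher in knock-down cells by 0.39 at 0 h and lower by a log2 difference of -0.63 at 6 d, without overlap at either, as 3.32% of all genes did. Its change between 0 h and 6 d differed between knock-down and control cells by -1.02 (SE 0.36, limma adjusted p = 0.698). The dimmer probe gave 0.28 for the same difference and was higher, not lower, in knock-down cells at 6 d (log2 difference 0.51, adjusted p = 0.838 in the fit over all probes). The 2 probes thus disagree on the sign at 6 d, and neither difference passed. At 6 d the dimmer probe was detected on 0 of 2 control arrays and 1 of 2 knock-down arrays. It was at least 1.02-fold higher in knock-down cells by the bound used above. Its sign at 6 d, and its 0.28, therefore rest on values near background. None of the 11621 genes passed for any of the 3 differences between stage changes (0%).

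The genes whose levels followed each member most closely were named from 9075 candidates by Pearson's r of log2 intensity over the 12 arrays. The arrays share 3 stages, so any gene that changes by stage correlates, and the values only describe likeness. For Dnmt3l they were Spred1 (r = 0.992), Ctbp2 (0.990) and Bmp4 (0.989). Bmp4, a growth factor of the BMP family, had mean log2 levels of 12.79, 9.76 and 8.10 at the successive stages in control cells. For Uhrf1 they were Ung (0.983), which removes uracil from DNA, Gbx2 (0.981) and Pus3 (0.980). For Tet1 they were D16Ertd472e (0.972), Chd9 (0.969) and Cers4 (0.968), and for Dnmt3b H2ac13 (0.968), a histone gene with near-identical copies that its probe may not separate, Zfp979 (0.948) and Larp1 (0.946). Dnmt1 was followed by Zbed5 (0.965), Ncoa5 (0.956) and Gtf2h4 (0.939).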

How the data were processed

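Total RNA of 12 F9 samples was extracted by the Tripure method, cleaned on minicolumns and labelled as biotinylated cRNA, per the labels' protocols. Intensity per probe and array was deposited without normalization, beside the detection p-value that the authors' software gave. The software that summarised the beads is not stated in the labels or headers used here. A second deposited table holds processed linear intensities. This table ranked probes as the raw arrays did and had column medians of 184.1 to 184.4. Each sorted column lay within 0.70 intensity units of the mean of the sorted raw arrays. Quantile normalization of raw intensities without background removal gives such columns. The labels do not state the method, and the table served as an alternative.

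Background was removed with nec of limma (version 3.58.1, R 4.3.3, offset 16), and the values were taken to log2 and quantile normalized; these log2 values were computed here from the deposited intensities. The filter required detection (p under 0.05) on 2 arrays or more, which 21525 probes passed, and the brightest of each gene was used. Gene names came from the platform annotation, in which 34885 probes have 1 gene, 18 several and 10378 none. One limma fit (lmFit, eBayes) with a mean per group covered 13 comparisons, each adjusted by Benjamini-Hochberg over 11621 genes. A fit over all probes was run beside it. The number of arrays limits the precision.

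The members and gene lists were chosen with earlier results of these data known. The text names all members, Kdm3a and the 3 genes most correlated with each member. It also names genes of the pathway, germline and replication lists past the threshold, up to 5 in each direction per comparison. Markers of undifferentiated, fibroblast and blood cells are named where the cell state is described. The visceral endoderm, trophoblast and neuroectoderm lists are given as summed levels. Gata6 is named because, of the marker lists, it alone was called between the 2 kinds of cells. Alternatives were median centring, the authors' table, no filter, a filter of p under 0.01 on 4 arrays, the mean of probes, an offset of 50, the replicate block, fits to the compared groups alone and omission of each array. Added after the data were seen were fits without the 3 resembling arrays, with them as a block, and without the 72 h arrays.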

Additional observations from a re-analysis of the deposited data

Results flagged for a closer look

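The change of Dnmt3b between 0 h and 6 d differed between knock-down and control cells by -1.02 on the log2 scale (SE 0.36, limma adjusted p = 0.698). It stood out because both knock-down arrays lay above both control arrays at 0 h and below them at 6 d. The difference did not pass the threshold, 3.32% of all genes showed opposite non-overlapping differences at these stages, and the dimmer Dnmt3b probe gave 0.28. That probe was near background at 6 d, where it was detected on 0 of 2 control arrays and 1 of 2 knock-down arrays. Leaving out 1 array gave -0.77 (without knock-down 6 d replicate 1) to -1.27 (without knock-down 6 d replicate 2), and averaging the 2 probes gave -0.37.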

How the results depend on the processing

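The members made 14 calls between stages, all of lower signal, and these were refitted 316 times under the alternatives: 267 fits kept the call, 49 lost it and 0 changed direction. Leaving out 1 array kept 135 of 168. The calls numbered 6 in control and 8 in knock-down cells, and leaving out 1 array gave 3 to 7 and 6 to 9. Fitting only the groups compared gave 4 in knock-down cells. The counts of members called between knock-down and control cells, and between their stage changes, were 0 in each of these fits (0 to 0 when 1 array was left out). The Dnmt3l and Tet1 falls and the knock-down Dnmt3b fall between 0 h and 6 d passed in every fit that was run, those without the 3 resembling arrays or the 72 h arrays included. Without the 3 arrays the Dnmt3b control fall by 6 d (-0.75, adjusted p = 0.0686), the Dnmt3l control fall after 72 h (-1.05, adjusted p = 0.0895) and the Tet1 knock-down fall by 72 h (-0.97, adjusted p = 0.122) lost their calls; without the 72 h arrays the control falls of Dnmt3b and Uhrf1 did (adjusted p = 0.0664 and 0.0634). Median centring moved the median of all genes by 0.58 from 0 h to 72 h in control cells and 0.61 in knock-down cells, by -0.45 and -0.42 from 72 h to 6 d, and by 0.11 and 0.15 over both steps. Called genes then split 4009 higher to 216 lower at 72 h in control cells, against 942 to 777, and 4333 to 288 in knock-down cells, against 1021 to 884. From 72 h to 6 d they split 182 to 2029 and 220 to 1996, against 179 to 115 and 267 to 178, and over both steps 1629 to 572 and 1725 to 503, against 1417 to 1162 and 1408 to 1188. Under it Dnmt1 and Dnmt3b, called in neither, read 0.52 and 0.57 at 72 h in control cells, which is -0.06 and -0.01 relative to the median. Both Uhrf1 calls, the control Dnmt3b call and the Tet1 knock-down call at 72 h were lost. Gained under median centring were the Tet1 falls after 72 h in both kinds of cells. The control Dnmt3b fall after 72 h was gained too (-1.17, adjusted p = 0.0147). The machinery list between 0 h and 6 d counted 1 to 4 higher and 3 to 8 lower in control cells when 1 array was left out (1 and 3 without control 0 h replicate 1), and 1 to 3 and 2 to 6 in knock-down cells (2 and 2 without knock-down 6 d replicate 1, 1 and 2 without knock-down 0 h replicate 2). From 0 h to 72 h they were 1 to 4 and 1 to 7 in control cells (1 and 1 without control 72 h replicate 2), and 1 to 4 and 0 to 4 in knock-down cells (3 and 0 without knock-down 0 h replicate 2). The labels do not say that replicate numbers pair the samples. Same-numbered deviations correlated above 0.1 in 7 of 15 pairs of groups (-0.11 to 0.54), among them all 6 pairs of the 0 h and 6 d groups (0.14 to 0.54). With the replicate block the counts were 6 and 9, and 0 between the 2 kinds of cells, and each member called between 0 h and 6 d was called again.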
